A study of Mus musculus with 6 samples.

Results

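The cells described here are the Lgr5-type stem cells of the crypt base of the mouse small intestine, recovered from Drop-seq libraries, a method that captures the polyadenylated RNA of single cells on barcoded beads. A barcode was kept when it had at least 300 genes and at most 25% of its counts on mitochondrially encoded genes. A kept barcode was counted as a stem cell when it had a count on at least 2 of Lgr5, Ascl2, Smoc2, Gkn3 and Axin2 and on fewer than 4 of the 7 goblet cell genes Muc2, Tff3, Agr2, Zg16, Fcgbp, Spink4 and Clca3. These counts chose the cells, so the levels of the 12 genes are given as description, without a test. The rule found 182 stem cells among 4890 kept barcodes of 6 libraries, a share of 3.72% (95% Clopper-Pearson interval 3.21% to 4.29%, which here and below covers counting error only).

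The libraries were made from small intestinal crypts, freshly isolated and untreated, of C57BL6 mice at an age of 10 weeks. Knockout mice are labelled as an epithelial knock-out of Ptger4, and flox mice, labelled Ptger4 flox, were set against them. The sources used here name neither the Cre line nor the exons removed. Each genotype had 3 collections from 2 biological replicates: by their codes, collections 1 and 2 are biological replicate 1 and collection 3 is biological replicate 2. Knockout collections 1 to 3 gave 31, 32 and 25 stem cells, and flox collections 1 to 3 gave 46, 19 and 29.

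Stem cells at the crypt base divide throughout adult life and give rise to all lineages of the epithelium. They are held in place by Wnt signals, which the R-spondin receptor Lgr5 amplifies, and by Notch signals from neighbouring Paneth cells. Ascl2 is a transcription factor that maintains their state, Axin2 is a feedback inhibitor that Wnt signalling switches on, Smoc2 encodes a secreted matrix-associated protein, and Gkn3 encodes a gastrokine. Ptger4 encodes EP4, a receptor for prostaglandin E2 that raises cyclic AMP.

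The files held 1605533 to 2646093 counts per knockout collection and 1228337 to 3146909 per flox collection over all barcodes. The 182 stem cells together held 593699 counts, with 82666 to 89001 per knockout collection and 81042 to 164481 per flox collection. Their median was 2686.5 counts and 1342.5 genes per cell, against 1234 counts in the other 4708 kept cells. No barcode of a stem cell occurred in more than 1 library. Kept barcodes were shared between libraries of 2 sets, one of knockout 1, flox 1 and flox 2 and the other of knockout 2, knockout 3 and flox 3, with 8 to 26 per pair of libraries and 0 across the sets. Xist, the RNA of the inactive X chromosome, had 72 counts in the stem cells of knockout collection 3 and 58 in those of flox collection 3, and 0 in those of the other 4 collections. Biological replicates 1 and 2 thus differed in Xist in both genotypes, and the tests had no term for this.

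The deleted gene could not be checked in the stem cells. Ptger4, on chromosome 15 (5206661 to 5244187, minus strand, GRCm38), had 0, 1 and 1 counts in the stem cells of knockout collections 1 to 3 and 1, 2 and 1 counts in those of flox collections 1 to 3. The other kept cells had 18.5, 19.6 and 24.9 CPM of Ptger4 in knockout and 12.3, 12.7 and 15.3 CPM in flox. CPM is the number of counts of a gene per 1000000 counts of a cell group in a collection. Ptger4 counts were thus not lower in knockout. Tags from the 3′ end may come from exons that the deletion spares, so the genotype labels could not be checked with them.

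Of the 5 stem genes, 129 cells had 2, 41 had 3, 12 had 4 and 0 had all 5. Median depth was 2272 counts in cells with 2 and 2936 in cells with 3, while the 553 cells just outside the limit, with 1 stem gene, had a median of 1483. The commonest of 24 combinations was Smoc2 with Axin2 alone (46 cells), followed by Lgr5 with Axin2 (28) and Lgr5 with Smoc2 (19). Axin2 was counted in 131 cells, Smoc2 in 125, Lgr5 in 85, Ascl2 in 56 and Gkn3 in 32. On the side of the goblet genes, 31 stem cells had 3 of them (median 4004 counts), while 25 barcodes with 2 or more stem genes were left out for having 4 (median 6700). Most detections were single counts: of the 85 cells with Lgr5, 71 had 1 count and 14 had 2 or more. The genes lie on chromosome 10 (Lgr5, 115450311 to 115587780), chromosome 7 (Ascl2, 142966829 to 142969264), chromosome 17 (Smoc2, 14279506 to 14404790), chromosome 6 (Gkn3, 87383256 to 87388935) and chromosome 11 (Axin2, 108920349 to 108950783), all in GRCm38.

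The label was checked with Olfm4 and Cdca7, which mark these cells and which the rule did not use. Olfm4, encoding the secreted glycoprotein olfactomedin 4 (chromosome 14, 79984081 to 80023139), was counted in 49.5% of stem cells. After thinning each cell to 1000 counts, which left out 24 of the 182, it was counted in 20.9% of 158 stem cells (14.8% to 28.1%). By comparison it was counted in 4.80% of 583 dividing cells with none of the 5 stem genes, 0.292% of 342 cells with enterocyte genes (at least 4 of 10) and 0 of 90 cells with lymphocyte genes (at least 3 of 13), which allows up to 3.33% (unthinned 7.05%, 0.469% and 1.41%, median depths 1310.5, 1794 and 891 counts). Cdca7, which encodes a chromatin-associated protein (chromosome 2, 72476159 to 72486893), was counted in 59.3% of stem cells, and in 29.1% after thinning (22.2% to 36.9%). Its thinned share was 13.6% in the dividing cells, 2.05% in the cells with enterocyte genes and 3.33% in those with lymphocyte genes. Both markers went with the label, and the share of cells with each was above that in the cells with lymphocyte genes, which should lack Olfm4.

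Olfm4 and Ifitm3 had the largest median ratio of stem cells to other kept cells among genes higher in all 6 collections, predicted genes left out. These were drawn from 3587 genes with at least 50 CPM in the higher group. Ratios were taken in each collection as log2 of CPM + 1, without the 12 rule genes. No test was made, because the cells were chosen by their counts. Olfm4 was at 276 ± 69.7 CPM in stem cells and 43.8 ± 12.9 CPM in the others (SD, n = 6 collections), a median log2 ratio of 2.57. Its level in stem cells was 257, 326 and 351 CPM in the knockout collections, against 152, 271 and 297 CPM in the flox collections, above the other cells in each. Ifitm3, an interferon-inducible membrane protein gene that restricts virus entry (chromosome 7, 141009586 to 141010770), was at 627 ± 94.0 CPM in stem cells and 103 ± 22.7 CPM in the others, also a log2 ratio of 2.57. Its stem cell level was 631, 708 and 762 CPM in knockout, against 578, 580 and 506 CPM in flox. The lowest ratio in any collection was 2.25. In all, 18 genes (0.502%) were at least 2-fold higher in stem cells in all 6 collections, and 123 (3.43%) were at least 2-fold lower.

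Slc12a2, the sodium-potassium-chloride cotransporter of chloride secretion, was at 951 ± 109 CPM in stem cells and 251 ± 37.1 CPM in the others, and its log2 ratio of 1.99 varied least among the 25 genes with the highest ratios, between 1.68 and 2.04. Cdca7 was at 453 ± 113 CPM in stem cells and 121 ± 15.9 CPM in the others (1.92). Clca4, a member of the family of calcium-activated chloride channel regulators, was at 1787 ± 394 CPM in stem cells and 498 ± 52.0 CPM in the others (1.82). The water channel gene Aqp4 stood at 117 CPM in stem cells against 31.9 CPM (1.72), and Cd44, the hyaluronan receptor and a Wnt target, at 119 CPM against 28.0 CPM (1.79). The insulin-like growth factor binding protein gene Igfbp4 (2.36) and Soat1, which esterifies cholesterol (2.04), also had high ratios. So did Dnph1, a nucleotide hydrolase gene (2.01), Naf1, needed to assemble telomerase and box H/ACA RNA particles (1.90), and Nav1, a microtubule-binding protein gene (2.21). Amica1, a junctional adhesion molecule gene, was at 333 CPM in stem cells, and in the cells with lymphocyte genes at 217 CPM.

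**Figure D1:**
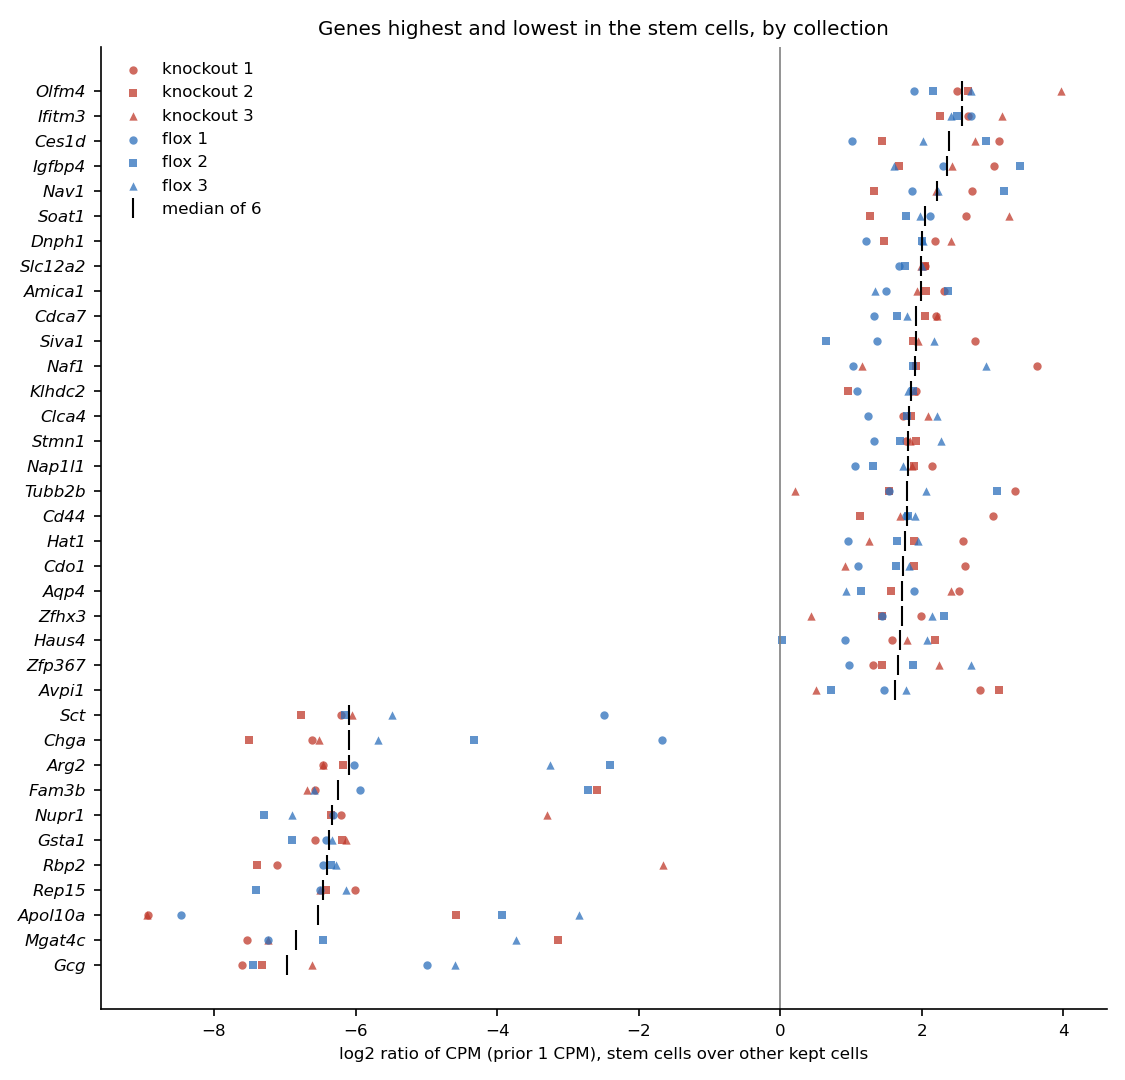
Log2 ratio of stem cells to other kept cells for the 25 genes with the highest and 11 of the 12 with the lowest median ratio, outside the rule and without predicted genes. Points are the 6 collections, with knockout and flox in different colours, and ticks are medians. Olfm4 and Ifitm3 lead at 2.57. Only genes with the same direction in all 6 collections could be shown, so that agreement was a condition and not a result.

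Genes of mature cells were among those with the lowest ratios. The enteroendocrine hormone gene Gcg, Rep15, a goblet cell marker, and the glutathione transferase gene Gsta1 had 0 counts. Against a floor of 3 counts over all stem cells (5.05 CPM) they were at least 18.3-fold, 17.5-fold and 16.5-fold lower than in the other cells. For Rep15 this is not independent of the rule, which placed cells with at least 4 goblet genes among the others. Rep15 averaged 235 CPM in cells with goblet genes. It averaged 2.70 CPM in dividing cells without the stem genes and 1.55 CPM in cells with enterocyte genes, both below the floor. Chga, the chromogranin gene of enteroendocrine cells, had 3 counts, 19.2-fold lower (6.56-fold to 92.9-fold). Apol10a, an apolipoprotein L gene, had 9 counts, 27.7-fold lower (14.6-fold to 60.7-fold).

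Of the stem cell identity list outside the rule, 31 genes were measured and 15 reached 50 CPM. Of these 15, 11 were higher in stem cells in all 6 collections and 0 were lower, with a median log2 ratio of 1.33. Over all 3587 genes 591 (16.5%) were higher in all 6, 631 (17.6%) were lower and the median was 0.01. The Wnt list had a median of 0.02, with 3 of 11 genes higher and 2 lower in all 6. Its higher members were Cd44, Ephb3, an ephrin receptor that positions cells along the crypt (1.46), and Rnf43, a ubiquitin ligase that removes Wnt receptors (1.36). Its lower members were Apc, a scaffold of the complex that degrades beta-catenin (-0.57), and the Wnt receptor Fzd5 (-0.83). Beta-catenin itself, Ctnnb1, stood at -0.13 and its DNA-binding partner Tcf7l2 at -0.79. The Wnt receptor Fzd7 was too low for the ranking, at 42.7 CPM in stem cells and 5.1 CPM in dividing cells without the stem genes.

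In the Notch list 2 genes reached 50 CPM. Hes1, the repressor that Notch switches on, was at a log2 ratio of 0.67 and higher in 6 of 6 collections, and the receptor Notch1 was at 1.23 and higher in 5 of 6. Of genes used to mark slowly cycling stem cells, Lrig1, an inhibitor of growth factor receptors, stood at 1.16 (6 of 6) and Hopx, a homeodomain protein gene, at 0.89 (5 of 6). The cell cycle inhibitor gene Cdkn1a stood at -1.13 (lower in 6 of 6), whereas Trp53, which encodes the factor that activates it, was at 1.10 (higher in 6 of 6). Genes of regenerating epithelium were close to absent: Clu had 2 counts, Ly6a 3 and Anxa1 0 in 593699 counts.

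Division and ribosome genes were higher in stem cells. Of 12 G2 and M phase genes 9 were higher in all 6 collections (median 0.79), among them Top2a, the topoisomerase that untangles chromosomes (846 CPM in stem cells, 436 CPM in the others). Of 10 S phase genes 6 were higher (median 1.05), among them the replicative helicase gene Mcm6 (1.45) and the dUTPase gene Dut (1.48). Of 13 ribosome biogenesis genes 12 were higher (median 0.84), with the nucleolar protein genes Ncl at 0.90, Npm1 at 0.95 and Nolc1 at 0.94. Ribosomal protein genes, of which 76 of 86 were higher and 1 lower, took 21.9% ± 1.89 of the counts in stem cells and 15.5% ± 1.31 in the others (SD, n = 4 biological replicates). Mitochondrially encoded genes went the other way, with 9 of 10 lower and a share of 4.20% in stem cells against 5.74%. In the glycolysis list 5 of 10 were lower and 0 higher, with Ldha, encoding lactate dehydrogenase A, at -0.96 and the phosphofructokinase gene Pfkp at -2.78.

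Markers of the differentiated lineages were low in stem cells. Of 16 enterocyte markers 14 were lower in all 6 collections (median -3.33), and Fabp2, the intestinal fatty acid binding protein gene, was at 219 CPM in stem cells against 1227 CPM. All 3 goblet markers outside the rule (median -4.62) and 6 of 7 enteroendocrine markers (median -5.83) were lower. So were all 3 T or NK cell markers (-5.82) and both B or plasma cell markers (-4.37). The goblet markers are not independent of the rule. It kept barcodes with at least 4 of the 7 goblet genes out of the stem cells, and 1019 such cells were among the others. Of 9 transcription factors of intestinal segments and villus cells, 6 were lower and 0 higher, with Creb3l3 at -5.74, Hnf4g at -1.89 and Klf4 at -1.37. Among keratin and adhesion genes, Krt20 (-2.96), Krt19 (-1.43) and Krt8 (-0.99) were lower, while the claudin gene Cldn2 (0.80), Cd24a (0.90) and the laminin receptor gene Itga6 (0.68) were higher. MHC class II genes, which present antigen to T cells, were not set apart: 0 of 5 were higher and 0 lower in all 6, with Cd74 at 725 CPM in stem cells and 837 CPM in the others.

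**Figure D2:**
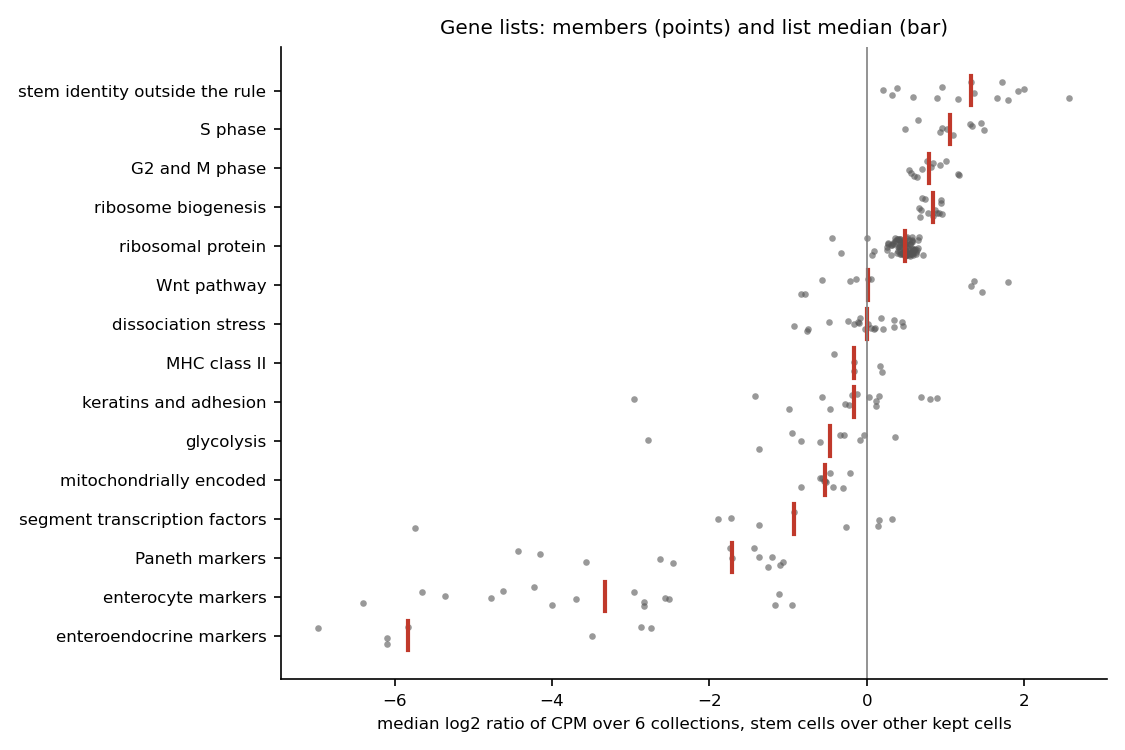
Median log2 ratio of stem cells to other kept cells over 6 collections. Each point is a gene and each bar the median of a list of genes with at least 50 CPM in the higher group. Stem cell identity genes outside the rule have their median at 1.33, enterocyte markers at -3.33 and enteroendocrine markers at -5.83.

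Transcripts typical of other cell types were counted in the stem cells, and their part in the results was not tested. Markers of Paneth cells, the neighbours of stem cells at the crypt base, took 0.165% ± 0.0163 of the counts in stem cells, 0.592% in the other kept cells and 0.460% in the cells with lymphocyte genes. Of 17 measured Paneth markers, 16 had a count in the stem cells, 59 of 182 stem cells had at least 4 of 12 Paneth genes, and 15 cells had none. Of 13 Paneth markers at 50 CPM, 11 were lower in stem cells in all 6 collections, with the lysozyme gene Lyz1 at -1.71. The antimicrobial lectin genes Reg3g (1248 CPM in stem cells, 6727 CPM in the others) and Reg3b (1402 CPM in stem cells, 8677 CPM in the others) were lower too. Only 1 stem cell had 3 or more of 13 lymphocyte genes, erythroid markers had 0 counts, and 4 stem cells had at least 10000 counts. Genes of the dissociation stress list took 1.01% in stem cells and 0.917% in the others.

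Levels of 6 genes outside the rule, chosen after their values were seen, were graded with the number of stem genes detected. The comparison left out cells with at least 4 goblet genes and, below 2 stem genes, those with at least 3 lymphocyte genes. It pooled 2856 cells with 0 stem genes, 552 with 1, 129 with 2 and 53 with 3 or 4. Ifitm3 was at 86.0, 221, 502 and 844 CPM in that order, Slc12a2 at 183, 461, 937 and 1014 CPM, and Clca4 at 463, 942, 1595 and 2009 CPM. Olfm4 was at 39.1, 115, 219 and 337 CPM and Cdca7 at 116, 244, 422 and 468 CPM. Reg3g ran the other way, at 8672, 4604, 1711 and 668 CPM. Cells with 1 stem gene, which the rule leaves out, thus lay between the stem cells and the cells with none in all 6 genes. Median depth also differed between these cells, and how far the number of stem genes follows depth was not separated.

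**Figure D3:**
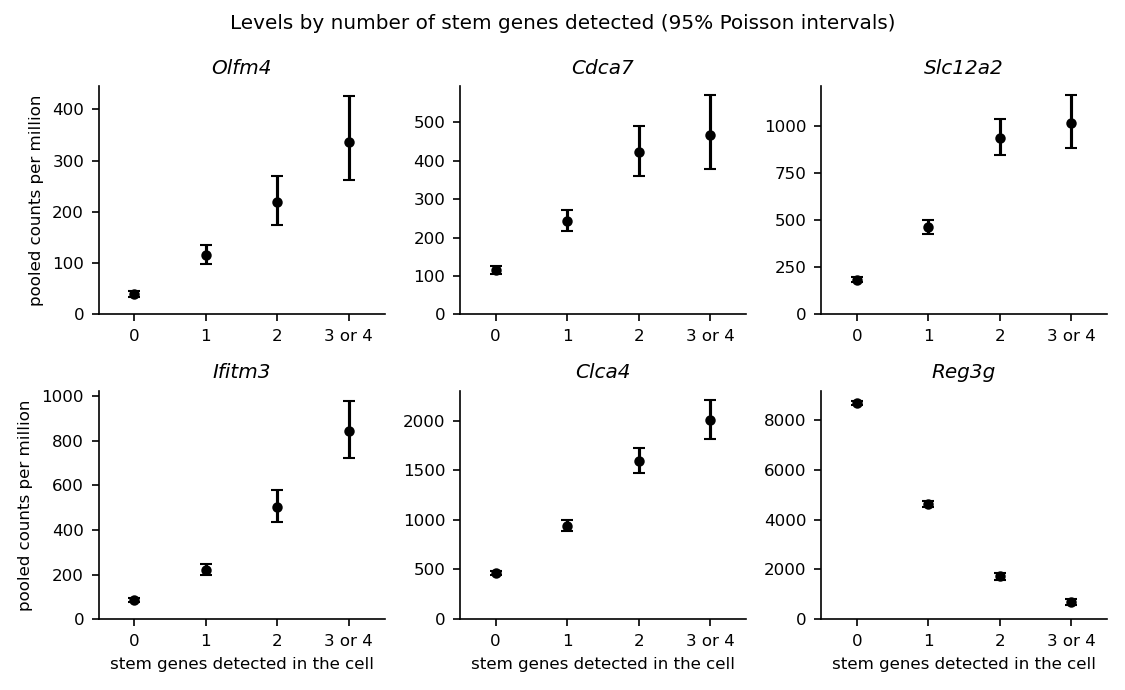
Pooled CPM of 6 genes outside the rule against the number of the 5 stem genes detected in a cell, with 95% Poisson intervals that cover counting error only. Olfm4, Cdca7, Slc12a2, Ifitm3 and Clca4 are higher with more stem genes, and Reg3g is lower, at 8672 CPM with 0 and 668 CPM with 3 or 4.

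The stem cells were also described with and without a count of Lgr5. Since the rule used Lgr5 and most detections were single counts, a cell without a count is not a cell that lacks Lgr5, and cells without it carried 2 or more of the other stem genes. The 85 cells with an Lgr5 count and the 97 without had similar depth (medians 2610 and 2754 counts). Cdca7 was at 440 CPM in cells with Lgr5 and 436 CPM in cells without, and Top2a at 841 CPM with Lgr5 and 828 CPM without. Ifitm3 was at 756 CPM with Lgr5 (Poisson interval 653 to 870) and 516 CPM without (443 to 599), and Cd44 at 156 CPM with Lgr5 (111 to 212) and 86 CPM without (58 to 124). Olfm4 was at 312 CPM (247 to 388) with Lgr5 and 220 CPM (172 to 276) without. The intervals overlapped for Cd44 and Olfm4 and did not for Ifitm3. They pool cells of all collections and cover counting error only. Cd44 was at 281 CPM in the stem cells of knockout collection 1 and at 60.5 to 99.0 CPM in those of the other collections. The 46 cells with Smoc2 and Axin2 alone had 168 CPM of Olfm4, 395 CPM of Cdca7 and 886 CPM of Slc12a2, all above the level of cells with 0 or 1 stem gene. The 8 genes outside the rule whose level was most like that of Lgr5 across 36 points (6 cell groups in 6 collections) were Rpl36a (Pearson r 0.74), Rps20, Clca4, Ifitm3, Rpl31, Rps26, Rplp2 and Rps19 (0.70). Lgr5 is a gene of the rule, and its level in several of these cell groups follows from how they were chosen, down to 0 in the dividing cells and the cells with enterocyte genes, which were taken without the stem genes. Points of a collection also share a library, and the groups differ in depth, so these values describe the groups and give no independent likeness.

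Of the 182 stem cells 127 were dividing, taken as a count on at least 2 of Mki67, Top2a, Cdk1, Ccnb1, Ccnb2, Ube2c, Cenpf, Birc5, Tpx2 and Cdc20, and 55 were not. Of the 55, 14 had at least 3 of 10 S phase genes, and 41 had neither sign of the cycle. Dividing cells had a median of 3304 counts and non-dividing cells 1728, and biological replicate 2 held 4 non-dividing cells in knockout and 3 in flox, so its values rest on few cells. Slc12a2 was lower in dividing cells in all 4 biological replicates, at 808 and 872 CPM in knockout and 798 and 1029 CPM in flox, against 1428 and 1354 CPM in knockout and 1497 and 1846 CPM in flox in non-dividing cells. Ifitm3 was lower too, at 595, 751, 488 and 503 CPM in dividing cells and 899, 862, 943 and 554 CPM in non-dividing cells in the same order of replicates. Reg3g was higher in dividing cells, at 1136, 791, 1479 and 2654 CPM, against 323, 492, 1087 and 923 CPM in non-dividing cells. Lgr5, a gene of the rule, was at 153, 201, 96.6 and 140 CPM in dividing cells and 323, 123, 410 and 185 CPM in non-dividing cells, lower in 3 of 4.

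Over 4025 genes outside the cycle lists, 435 (10.8%) were higher in dividing stem cells in all 4 biological replicates and 204 (5.07%) were lower. Among the 10 largest ratios, Prc1, a midzone microtubule bundling protein gene, was at 273 CPM in dividing cells and 11.5 CPM in non-dividing cells, the kinesin gene Kif20b at 316 CPM in dividing and 20.5 CPM in non-dividing cells, and Cdca8, a subunit of the chromosomal passenger complex, at 256 CPM in dividing and 10.3 CPM in non-dividing cells. The linker histone gene Hist1h1e was at 196 CPM in dividing and 10.3 CPM in non-dividing cells. Kif15, Ckap2l and Cenpa, the centromeric histone gene, were at 174, 163 and 118 CPM in dividing cells and had 0 counts in non-dividing cells. The lowest ratios among the named genes were those of the phosphatase gene Ptp4a1, Iffo2 and the syntaxin gene Stx3. Ptp4a1 was at 8.82 ± 6.03 CPM in dividing cells and 92.9 ± 75.1 CPM in non-dividing cells (SD, n = 4 biological replicates). Iffo2 was at 99.3 ± 70.6 CPM and Stx3 at 104 ± 63.4 CPM in non-dividing cells. Bcl11a, a transcriptional repressor gene, was at 26.8 ± 14.2 CPM in dividing cells and 146 ± 84.8 CPM in non-dividing cells. These low-ratio genes reached 50 CPM in the non-dividing cells alone, where biological replicate 2 held 4 cells in knockout and 3 in flox. The same direction in all 4 biological replicates was a condition for naming them. All 14 G2 and M phase genes were higher, of which the split itself used 10, whereas of 10 S phase genes 1 was higher and 1 lower (median 0.18). Of 17 stem identity genes 0 were higher and 2 lower (median -0.21), and of 87 ribosomal protein genes 0 were higher and 13 lower (median -0.09). Of 8 enterocyte markers 5 were higher in dividing cells (median 1.33).

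**Figure D4:**
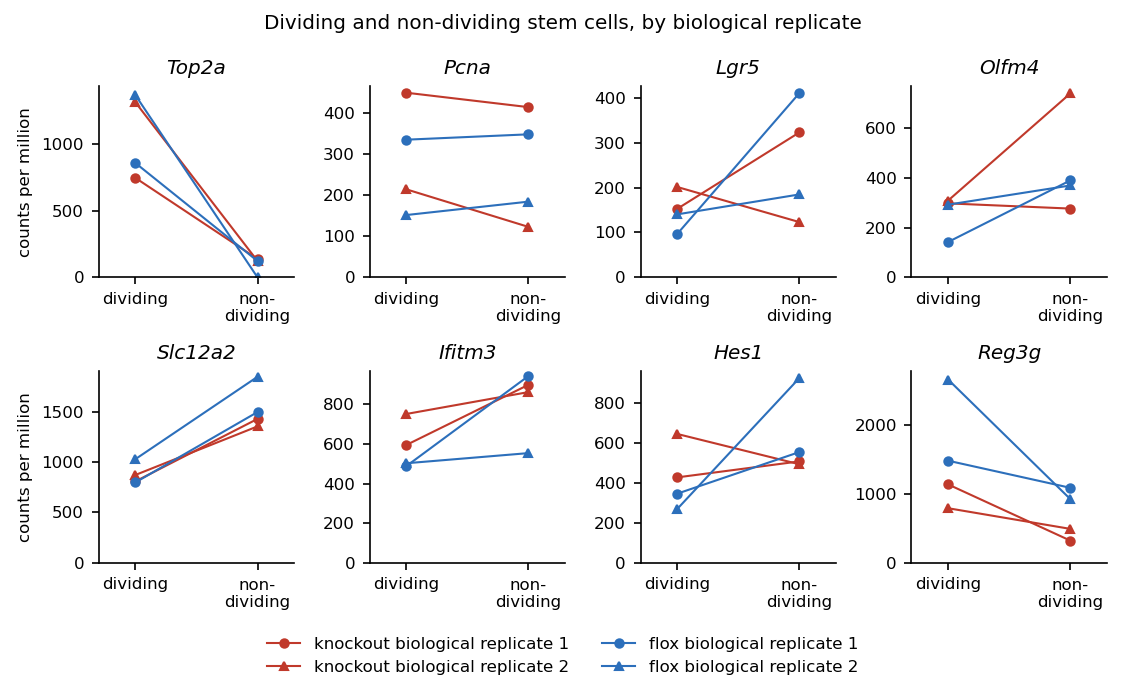
CPM of 8 genes in dividing and non-dividing stem cells, with a line for each of the 4 biological replicates. Top2a belongs to the split by construction, Slc12a2 and Ifitm3 are lower in dividing cells in 4 of 4 replicates, and Reg3g is higher in 4 of 4.

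The share of stem cells did not differ between genotypes beyond the spread between collections. With every kept cell thinned to 1000 counts before the rule was applied, 39 of 2966 cells were stem cells. Knockout had 1.37% ± 0.925 and flox 1.10% ± 0.475 (SD over 2 biological replicates each), a difference of 0.27 percentage points (two-sided exact permutation test, p = 1 over biological replicates and p = 1 over collections). The smallest p these designs allow is 0.3333 over biological replicates and 0.1 over collections, so neither can pass 0.05. By collection it was 0.642%, 3.74% and 0.713% in knockout and 1.56%, 1.12% and 0.761% in flox. Knockout collection 2, with 14 of 374 cells, was the highest, and without it the difference was -0.419. Without thinning the shares were 4.11%, 4.55% and 2.55% in knockout and 4.37%, 4.02% and 3.13% in flox.

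The share of dividing cells among 158 stem cells thinned to 1000 counts was 45.9% ± 12.8 in knockout and 63.9% ± 19.6 in flox (SD, n = 2 each). The difference of -18.0 points did not pass (two-sided exact permutation test, p = 0.667 over biological replicates and 0.3 over collections). By collection the share was 39.3%, 34.5% and 55% in knockout and 50%, 50% and 77.8% in flox, so the genotypes overlapped. Without thinning it was 72.2% ± 16.8 in knockout and 77.1% ± 17.7 in flox.

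No gene passed the test of knockout against flox in the stem cells. Counts were summed per biological replicate, and 2361 genes were tested with edgeR's quasi-likelihood test, of which 0 (0%) had a Benjamini-Hochberg adjusted p under 0.05. At an unadjusted p under 0.05 there were 61 genes higher in knockout (2.58%) and 36 lower (1.52%), and DESeq2 called 0, with 26 at an unadjusted p under 0.05. In 229 genes (9.7%) the 3 knockout collections did not overlap the 3 flox collections. Lack of overlap in a gene named below is to be read beside this share. Where a gene was chosen by its small p, it is no separate support, since both come from the same counts. The median log2 fold change was 0.00 and the median standard error 0.38. The call depended on the model: with a term for the biological replicate, whose numbers go with Xist in both genotypes, 9 genes passed, 6 higher and 3 lower in knockout, with Mt1 at an edgeR adjusted p of 0.00016. The genes named below, other than where a setting is given, are therefore values and not calls (n = 2 per genotype).

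Mt1 had the smallest p. This gene of chromosome 8 (94179082 to 94180327, plus strand, GRCm38) codes for metallothionein 1, which stores zinc and other metals. The 3 knockout collections had 1064, 1101 and 798 CPM of Mt1, against 353, 383 and 176 CPM in the 3 flox collections, with no overlap. These levels rest on 91, 98 and 66 counts in knockout and 58, 31 and 16 counts in flox. This is a log2 fold change of 1.74 with a standard error of 0.34 (n = 2 per genotype), and it did not pass (edgeR adjusted p = 0.710). Across 22 alternative settings the fold change was 1.16 to 2.45 on the log2 scale and passed in 11. The neighbouring Mt2 (94172664 to 94173568) was too low to be tested, with 4, 4 and 5 counts in knockout and 9, 1 and 3 counts in flox.

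The same direction of Mt1 was seen in the other epithelial cells, measured apart from the stem cells in the same libraries. There Mt1 was the 1 gene of 10344 that passed (0.00967%), and it rose in knockout by 2.21 on the log2 scale with a standard error of 0.21 (n = 2 per genotype, edgeR adjusted p = 0.000497). In dividing cells without the stem genes it was at 1047, 1064 and 1208 CPM in knockout and 144, 164 and 266 CPM in flox. In cells with enterocyte genes it was at 2394, 2193 and 3224 CPM in knockout and 494, 302 and 847 CPM in flox. In cells with goblet genes (at least 4 of 7) it was at 1012, 1158 and 1434 CPM in knockout and 304, 318 and 300.1 CPM in flox. Of these 4 cell groups, only in the cells with lymphocyte genes did the genotypes overlap, at 427, 312 and 41.5 CPM in knockout and 114, 195 and 124 CPM in flox. The interaction test of stem cells against other epithelium gave Mt1 a difference of -0.54 in log2 fold change, which did not pass (edgeR adjusted p = 1).

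Metallothionein genes are switched on by metals through the factor MTF1, which binds metal response elements. The RefSeq promoter windows of Mt1 and Mt2 are shown because Mt1 was the gene with the smallest p and Mt2 its untested neighbour. Each runs from 250 bases before to 50 bases after the start, on the plus strand of GRCm38.p6, at chr8:94178839-94179138 for Mt1 and chr8:94172368-94172667 for Mt2. Capitals mark matches on either strand to the core of the element, searched as TGCACNC or TGCGCNC.
Mt1: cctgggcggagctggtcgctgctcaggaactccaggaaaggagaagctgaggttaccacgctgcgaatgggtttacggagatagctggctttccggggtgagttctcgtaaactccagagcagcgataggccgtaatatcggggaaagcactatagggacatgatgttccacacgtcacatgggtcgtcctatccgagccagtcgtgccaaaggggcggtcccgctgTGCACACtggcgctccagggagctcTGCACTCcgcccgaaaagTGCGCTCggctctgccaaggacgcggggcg
Mt2: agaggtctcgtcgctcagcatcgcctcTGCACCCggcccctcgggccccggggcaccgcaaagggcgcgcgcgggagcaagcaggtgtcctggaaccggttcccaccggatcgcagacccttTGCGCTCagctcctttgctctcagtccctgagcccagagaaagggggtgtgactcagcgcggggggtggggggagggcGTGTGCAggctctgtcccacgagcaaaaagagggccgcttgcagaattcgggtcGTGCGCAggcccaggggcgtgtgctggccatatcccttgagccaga
The Mt1 window held 3 matches and the Mt2 window 4, none overlapping another. Of 27025 genes with a window, 28.2% held at least 1 match. A match is a run of letters and not a site shown to be bound.

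Among other genes higher in knockout, Hspa1a, an inducible heat shock protein gene that is nearly identical to Hspa1b and therefore uncertain, was at 234, 315 and 327 CPM in knockout and 66.9, 210 and 77.0 CPM in flox (log2 fold change 1.55, SE 0.32, edgeR adjusted p = 0.710). The collections did not overlap. Over 21 alternative settings the Hspa1a value was 0.74 to 2.07 and passed in 4. It was 0.74 in stem cells with under 10000 counts and under 4 Paneth genes and 0.88 with Axin2 left out of the rule. Of the 19 tested genes of the dissociation stress list, which holds Hspa1a, 12 had higher and 7 lower values, with a median of 0.07, and 0 were called. Apoa1, the enterocyte apolipoprotein A-I gene, was at 105, 78.7 and 121 CPM in knockout and 18.2, 12.3 and 22.0 CPM in flox (2.48, SE 0.67, edgeR adjusted p = 0.885), from 9, 7 and 10 counts in knockout and 3, 1 and 2 counts in flox. Enterocyte markers together took 0.178%, 0.539% and 0.264% of stem cell counts in knockout and 0.424%, 0.191% and 0.659% in flox, so the whole list did not move with Apoa1. Atp5l, a subunit gene of the mitochondrial ATP synthase, was at 397, 292 and 266 CPM in knockout and 109, 247 and 143 CPM in flox (1.06, SE 0.31). Rps28, a ribosomal protein gene, was at 1414, 4270 and 2855 CPM in knockout and 2693, 592 and 1473 CPM in flox (0.73, SE 0.22). Its collections overlapped, and within the barcode-sharing set of knockout 1, flox 1 and flox 2 its direction reversed, at -0.29. Atp5g2, another ATP synthase subunit gene, stood at 1.15 with overlapping collections.

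Among genes lower in knockout, Celf1, an RNA-binding protein gene, was at 93.5, 78.7 and 72.6 CPM in knockout and 201, 173 and 220 CPM in flox, with no overlap (-1.29, SE 0.35, edgeR adjusted p = 0.885). Samm50, which inserts proteins into the outer mitochondrial membrane, stood at -1.27, Irf8, an interferon regulatory factor gene, at -1.50, Hadhb, a gene of fatty acid oxidation, at -2.07 and Mrps26, a mitochondrial ribosomal protein gene, at -2.31. All 4 had collections that did not overlap, as had 9.7% of all genes tested, and none passed (edgeR adjusted p of 0.967 to 0.998). Reg3g was at 327, 1517 and 762 CPM in knockout and 1860, 469 and 2551 CPM in flox (-1.17, SE 0.30, edgeR adjusted p = 0.885). Flox collection 2 was below knockout collections 2 and 3, so the genotypes overlapped. Over 22 alternative settings the Reg3g value was -1.90 to -0.30 and passed in 4. It was -0.30 in stem cells with under 10000 counts and under 4 Paneth genes, -0.54 after thinning and -1.84 without knockout collection 2. It was -0.74 without knockout collection 1 and -0.70 without flox collection 3. Paneth markers took 0.145%, 0.142% and 0.179% of stem cell counts in knockout and 0.201%, 0.125% and 0.162% in flox.

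**Figure D5:**
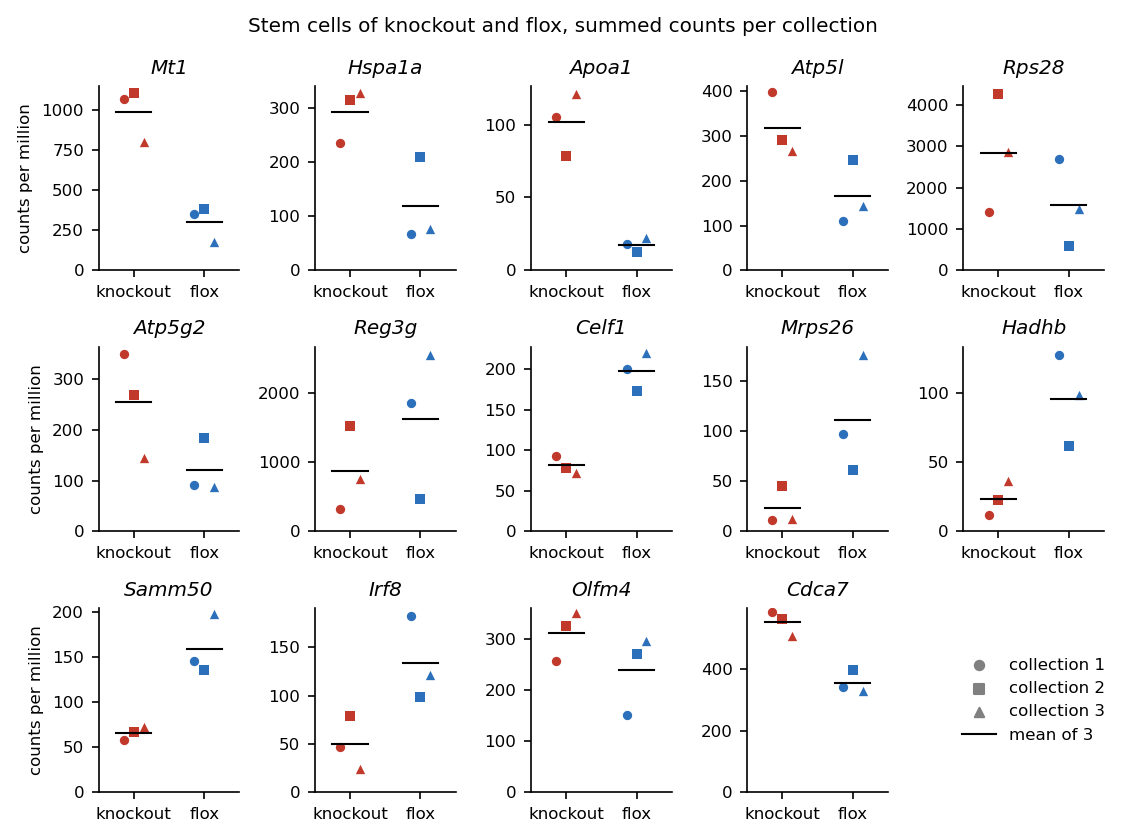
CPM in the stem cells of each collection, knockout left and flox right, for the 12 genes with the smallest p and for Olfm4 and Cdca7. Lines mark the mean of 3 collections. Mt1 lies between 798 and 1101 CPM in knockout and between 176 and 383 CPM in flox, and Rps28, Atp5g2, Reg3g and Olfm4 overlap.

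Stem cell markers did not pass in either direction. Cdca7 was at 584, 562 and 508 CPM in knockout and 340.5, 395 and 329.8 CPM in flox, with no overlap (0.67, SE 0.28, edgeR adjusted p = 0.998). Olfm4 overlapped (0.46, SE 0.33), and Slc12a2 was at 923, 1000 and 919 CPM in knockout and 1021, 765 and 1078 CPM in flox (-0.07, SE 0.23). The genes of the rule, given without a test, overlapped in Lgr5 (269, 124 and 194 CPM in knockout, 195, 86.4 and 143 CPM in flox). They also overlapped in Ascl2 (105, 135 and 109 CPM in knockout, 85.1, 123 and 121 CPM in flox). Smoc2 was at 257, 416 and 302 CPM in knockout and 243, 222 and 363 CPM in flox. Axin2, with the same 22, 37 and 25 counts as Smoc2 in knockout, was at 257, 416 and 302 CPM in knockout and 298, 247 and 330 CPM in flox. Gkn3 was at 187, 124 and 36.3 CPM in knockout and 48.6, 61.7 and 33.0 CPM in flox. Of 12 tested genes of the stem identity list 7 had higher and 5 lower values (median 0.23), and of 5 Wnt genes 4 higher and 1 lower (median 0.26).

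No list had a member called, against 0 of 2361 genes. Over all 2361 genes 1190 had higher values in knockout and 1171 lower, with a median of 0.00. Of 84 ribosomal protein genes 65 had higher values in knockout and 19 lower, with a median of 0.09. Mitochondrially encoded genes stood at a median of 0.27 (8 higher, 2 lower), with mt-Cytb at 0.54, mt-Co1 at 0.46 and mt-Rnr2 at -0.45. S phase genes stood at -0.11 (2 higher, 6 lower) and G2 and M phase genes at -0.14 (3 higher, 8 lower), with Mki67 at -0.01 and Cdc20 at -0.79. In the cAMP-responsive list, which holds targets of the pathway that EP4 activates, 5 of 8 genes had higher and 3 lower values (median 0.18). In it Fos averaged 488 CPM in knockout and 735 CPM in flox (-0.54). Egr1 went the other way, at 635 CPM in knockout and 485 CPM in flox (0.42). Both are also in the dissociation stress list. Jun, of the dissociation stress list, averaged 1281 CPM in knockout and 787 CPM in flox (0.68). None of these genes passed. Of the prostaglandin list only Ptges3, a prostaglandin E synthase and cochaperone gene, was tested (-0.34), at a mean of 252 CPM over the 4 biological replicates. Ptger1, Ptger2 and Ptgs2 had 0 counts, Ptgs1 had 1, and Hpgd, which degrades prostaglandins, had 15.

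The genotype effect in stem cells was set against that in the other epithelial cells over 9606 genes. The interaction was called for 0 genes (0%), with 376 at an unadjusted p under 0.05, and DESeq2 called 0 with 73 at an unadjusted p under 0.05. Reg3g came nearest, with a log2 fold change of -1.17 in stem cells and -0.06 in the other epithelial cells (difference -1.09, SE 0.24, edgeR adjusted p = 0.0636). The difference for Apoa1 was 2.32 (edgeR adjusted p = 0.361).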

How the data were processed

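RNA counts of single barcodes were read from 6 tables of raw counts as deposited by the authors, 1 per collection, with genes in rows and barcodes of 12 bases in columns. The submitters' processing notes name STAR 2.6 and mm10; of the counter, its strand setting or a filter on barcodes the sources used here give nothing. The counts are whole numbers and were not normalized before deposit.

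Barcodes were kept and stem cells chosen by the rule given at the opening. The members and the gene lists were chosen with earlier results of these data known. The cell groups set beside the stem cells were defined after the files were read, by numbers of detected genes: at least 2 of 10 division genes, 3 of 13 lymphocyte genes, 4 of 10 enterocyte genes or 4 of 7 goblet genes. No doublet caller was run. Levels are CPM of summed counts, with 1 CPM added before a log2 ratio. Thinning drew 1000 counts from each cell without replacement.

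Cells are not replicates, so counts were summed per biological replicate, which the collection codes give (A and B with the same number were taken as the same replicate). Nothing further says how the replicates were made, so p-values measure the spread between these samples. Sums were tested with edgeR 4.0.16 in R 4.3.3 (TMM, filterByExpr with a minimum count of 10, quasi-likelihood test, Benjamini-Hochberg threshold 0.05), with DESeq2 1.42.0 as an alternative. The interaction fit had a term per biological replicate. Rule genes were left out of rankings and their fitted values are not reported. The script was checked on simulated counts with a common dispersion for all genes. Of the changed genes that were tested, 13.6% were recovered at a 2-fold change and 92.7% at a 4-fold change. There were 3 false calls at 2-fold and 2 at 4-fold. In that simulation the genotype test thus missed most 2-fold changes. Python 3.11.15, numpy 2.4.6, scipy 1.17.1 and pandas 2.3.3 were used for the rest.

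Genes named were the 25 highest and 12 lowest median ratios for stem cells against other cells, the 10 highest and lowest for dividing against non-dividing cells, and, as no gene passed, the 6 smallest p per direction with at least 20 CPM for the genotypes. Of the 12 lowest, 1 is not reported here. List members named are among the highest or smallest p of each list, or were chosen after their values were seen. Positions are from GENCODE M21, which matched 17963 of 19178 symbols (93.7%), and promoters from RefSeq on GRCm38.p6.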

Additional observations from a re-analysis of the deposited data

How the results depend on the processing

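The count of genes called between genotypes in the stem cells (0) was 1 with no filter on low counts, 1 with collections as samples, 1 with cells thinned and 1, as an alternative added after the data were seen, in dividing members, the gene being Mt1 in each, and it was 1 with Axin2 left out of the rule (Rn7sk). It was 9 with the biological replicate block (6 higher and 3 lower in knockout, Mt1 and Reg3g among them) and 1 with the collection number as replicate block. Same-numbered collections had correlations of -0.08, 0.05 and 0.19 and biological replicates 0.16. By these correlations the collection numbers were not taken to pair the samples, although the biological replicate number goes with Xist in both genotypes. Leaving out a library or biological replicate in turn gave 0 to 12 calls: 12 without flox biological replicate 1, 7 without knockout biological replicate 1, 3 without knockout collection 2, 3 without flox collection 2 and 2 without flox collection 3. Where a genotype was left with 1 sum, that sum was assumed to vary like those of the other genotype. Within the barcode-sharing set of knockout 2, knockout 3 and flox 3, added after the data were seen, 6 genes were called, and in the other set 0. Rps28 stood at -0.29 in that other set. The interaction was called for Reg3g alone with no filter (1) and at 600 genes per barcode (1). The difference in the share of stem cells (0.27) was -0.259 without thinning and -0.157 after thinning to 500 counts, and -0.419 to 1.13 without 1 library. The difference in the dividing share was -27.0 to -4.08 without 1 library. The count of genes at least 2-fold higher in stem cells (18) was 17 with every kept cell thinned to 1000 counts. Only 9 genes were shared between these 2 sets, so the named genes changed more than their count. The count was 16 with the limits on counts and Paneth genes given above, set on both sides after the data were seen. It was 43 against cells with none of the 5 stem genes and 19 to 35 without 1 library (35 without flox collection 1). The cause of these changes was not tested. The genotype test had 2 sums per genotype of 82666 to 245523 counts, and which of these limits it more was not compared.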
